A study of Mus musculus with 33 samples.

Results

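MLL3 and MLL1, a pair of histone H3 lysine 4 methyltransferases, were compared by where each was found on the genome of growing mouse myoblasts. The comparison took the MLL3 peak list (208538 autosomal peaks) and the MLL1 peak lists, which were a pooled list (8795 peaks), replicate 1 (4098 peaks) and replicate 2 (460 peaks). These 4 lists hold 221891 of the 479474 autosomal peaks of the 23 lists of the series. Peaks were taken by the name of the protein in the labels, and no measured value entered the choice. A peak is said to have met another list when at least 1 bp of it lay under a peak of that list.

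MLL1 and MLL3 are large enzymes whose SET domains add methyl groups to lysine 4 of histone H3, and both work in complexes with the core subunit Wdr5. Menin is a subunit of the complexes of MLL1 and its close relative MLL2, and not of those of MLL3 and MLL4. MLL1 is best known for trimethylated H3K4 at promoters and for keeping Hox genes active, and MLL3 and MLL4 for mono-methylated H3K4 at enhancers. Of the other proteins mapped in the series, ING1 binds trimethylated H3K4 and belongs to Sin3 deacetylase complexes, LSD1 removes methyl groups from H3K4, and Sin3A is the scaffold of the Sin3 complex.

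All myoblast lists came from C2C12, an immortalised mouse myoblast line that fuses into myotubes when serum is withdrawn, kept growing in 10% fetal bovine serum. Sonicated chromatin was pulled down and its DNA sequenced (ChIP-seq), with antibodies against MLL3, MLL1, Menin, Wdr5 and LSD1, and through a Flag tag for ING1, which was expressed from a stable transgene in its own C2C12 line. The myotube lists of ING1, LSD1 and Sin3A came from cells kept for 96 h in 2% horse serum. The labels of the MLL1 samples disagree, with Menin as the source, MLL in the title and an MLL1 antibody, and they were treated as MLL1. The labels do not say whether MLL1 replicates came from separate cultures. Peak lists carry no expression values, so the cell type could not be checked against marker genes.

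MLL3 has a single list and therefore no replicate check. A single list against 2 replicates cannot be tested over samples, since the smallest one-sided p it allows is 0.333, and peaks are not replicates of a condition. Differences between MLL3 and MLL1 are therefore set beside the distance between the MLL1 replicates. The names of the MLL1 lists share a suffix with the pooled lists of Menin, Wdr5, ING1 and Sin3A. The name of the MLL3 list lacks this suffix, whose meaning is not given. Any difference in how the lists were made cannot be told apart from the protein, also in the shares of peaks at these other proteins. The distance between the MLL1 replicates does not measure it. No list gives read counts, so depth is unknown, and how many peaks a list has varies with depth and threshold as well as with binding. The MLL1 replicates themselves differed in length by a wide margin. Of the 460 peaks of replicate 2, 84.1% met replicate 1, and 324 pooled MLL1 peaks met both replicates. The ranges given after shares are 95% intervals from the exact binomial distribution, which describe counting error and nothing else.

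MLL3 peaks were many, slightly wider than MLL1 peaks, and closer to each other. They covered 163 Mb, or 6.77% of the autosomal length, whereas the pooled MLL1 peaks covered 6.34 Mb (0.263%), those of replicate 1 covered 2.87 Mb and those of replicate 2 covered 0.307 Mb. The median MLL3 peak was 635 bp wide. The median MLL1 peak was 565 bp wide in the pooled list, 571.5 bp in replicate 1 and 574.5 bp in replicate 2. MLL3 thus exceeded all 3 MLL1 lists by 60.5 bp to 70 bp, and its median was above that of pooled MLL1 on 18 of 19 autosomes. The medians of the MLL1 replicates stood 3 bp apart, which does not measure any difference in how the MLL3 and MLL1 lists were made. The order did not hold for the 324 MLL1 peaks found in both replicates, whose median was 1676.5 bp. A wide peak has more chance of meeting both replicate lists, so those peaks are selected for width.

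The difference between MLL3 and pooled MLL1 in width ran through most of the distribution and was absent at its broad end. The 5th percentile was 346 bp for MLL3 and 238 bp for pooled MLL1, the 25th was 486 bp and 415 bp, and the 75th was 890 bp and 833.5 bp. At the narrow end, 98.0% of MLL3 peaks were wider than 300 bp against 89.7% of pooled MLL1 peaks. At the 95th percentile MLL3 stood at 1682 bp, pooled MLL1 at 1681 bp, and the MLL1 replicates at 1505 bp and 1335 bp. Peaks over 2 kb made up 3.05% of the MLL3 list (6365 peaks) and 2.92% of the pooled MLL1 list (257 peaks), with 2.42% and 1.09% in the MLL1 replicates. Peaks over 5 kb made up 0.164% of the MLL3 list (341 peaks) and 0.296% of the pooled MLL1 list (26 peaks). The widest peak was 21.8 kb for MLL3 and 10.5 kb for MLL1.

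Neighbouring MLL3 peaks stood a median of 3.46 kb apart. For pooled MLL1 the median gap was 82.0 kb, for replicate 1 it was 180 kb and for replicate 2 it was 1822 kb. Because a longer list must have shorter gaps, each median was also divided by its own mean gap, where a value near 1 would mean that the gaps are alike in size and a low value that many short gaps stand beside a few very long ones. That quotient was 0.321 for MLL3, 0.302 for pooled MLL1, 0.309 for replicate 1 and 0.388 for replicate 2. MLL3 lay between the MLL1 replicates, so unevenness by this measure did not separate it from MLL1. An MLL3 list as long as that of pooled MLL1 was made of its widest peaks, so length and width changed together. These 8795 MLL3 peaks, all 1784 bp or wider, had a median gap of 25.3 kb and a mean of 266 kb, a quotient of 0.0949 against the 0.302 of MLL1.

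Clusters were formed by joining peaks across gaps of 10 kb or less. That distance was close to the mean MLL3 gap (10.8 kb) and far below that of pooled MLL1 (272 kb). A longer list therefore forms clusters more readily under this rule, whatever the grouping of its peaks. Of the MLL3 peaks, 79.7% lay in clusters of 3 or more, against 16.4% of pooled MLL1 peaks, 15.3% in replicate 1 and 29.8% in replicate 2. Lone peaks made up 11.5% of the MLL3 list and 63.1%, 66.5% and 64.6% of the pooled MLL1 list and of replicates 1 and 2. MLL3 formed 17974 such clusters, which spanned 556 Mb or 23.1% of the autosomes, and 275 of them held 50 peaks or more. The 376 pooled MLL1 clusters spanned 3.47 Mb, and the largest held 28 peaks. Of the 8795 widest MLL3 peaks, 32.9% lay in clusters of 3 or more, against the 16.4% of all pooled MLL1 peaks. List length without a choice by width was not tested.

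**Figure D1:**
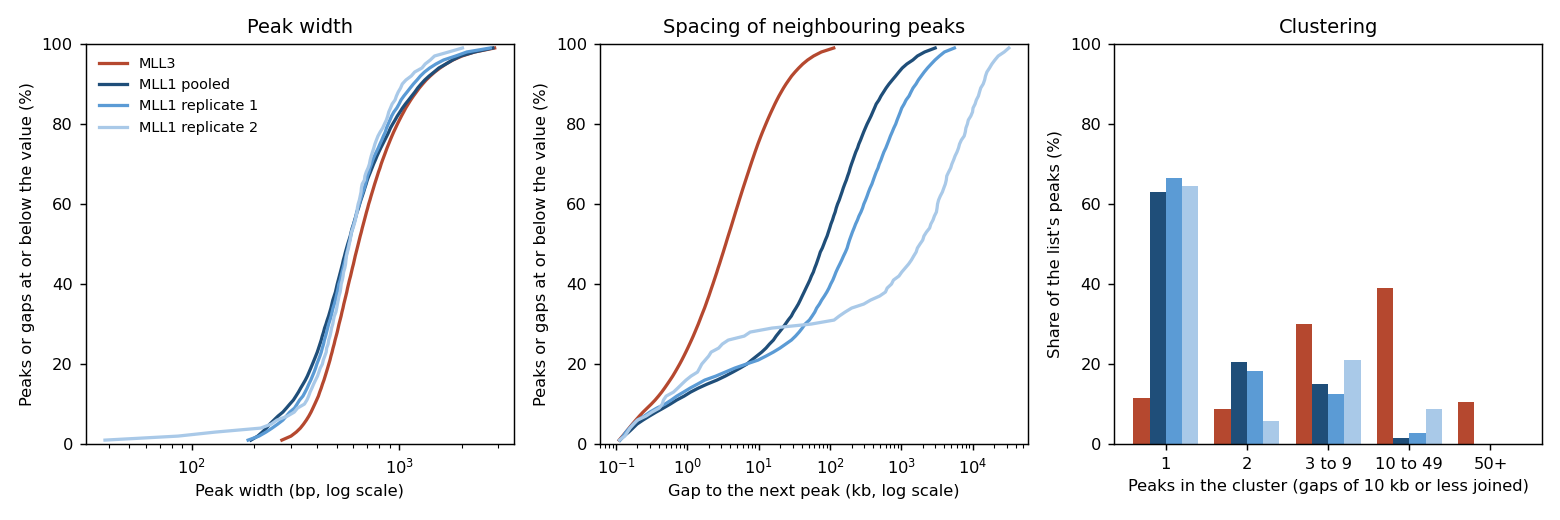
Peak width in bp (left, log scale) and gap to the next peak in kb (middle, log scale) plotted against the percentage of peaks or gaps at or below each value, and the share of each list's peaks in clusters of each size (right, peaks joined over gaps of 10 kb or less), for MLL3 and the 3 MLL1 lists on the autosomes. The MLL3 width curve lies to the right of the MLL1 curves at the narrow end, its gaps are shorter (median 3.46 kb against 82.0 kb for pooled MLL1), and 50 or more peaks share a cluster in MLL3 only, for 10.6% of its peaks.

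At the scale of 1-Mb windows, measures of evenness moved with list length. MLL3 had a peak in 98.7% of the 2422 windows, and pooled MLL1 in 74.9%. The coefficient of variation of peaks per window was 0.800 for MLL3, 1.11 for pooled MLL1, 1.43 for replicate 1 and 4.24 for replicate 2, an order that follows the length of the lists. The variance over the mean went the other way, at 55.1 for MLL3 and 4.45, 3.47 and 3.42 for the MLL1 lists, so neither measure separated the proteins from the lengths of their lists. Windows richer in MLL1 were also richer in MLL3. The median number of MLL3 peaks was 162 in the 137 windows with 11 or more MLL1 peaks, 125 in the windows with 6 to 10, 91 with 3 to 5, 53 with 1 to 2, and 19 in the 609 windows without an MLL1 peak. Spearman's rho between the counts over windows was 0.669, and 0.664 without chromosome 15, as a description over windows that share mappability and base composition. MLL3 had peaks in 577 windows that held no MLL1 peak, and no window held MLL1 without MLL3.

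Chromosome by chromosome, both proteins were dense on the same autosomes. MLL3 ran from 39.6 peaks per Mb on chromosome 7 to 168 on chromosome 11, with 157 on chromosome 15. Pooled MLL1 ran from 1.43 peaks per Mb on chromosome 7 to 7.57 on chromosome 15, with 6.26 on chromosome 11. Over the 19 autosomes Pearson's r between the densities was 0.913 and Spearman's rho 0.830, and without chromosome 15 they were 0.881 and 0.802. The number of MLL3 peaks per pooled MLL1 peak nevertheless varied, with 17.5 on chromosome 10, 18.0 on chromosome 3 and 28.8 on chromosomes 9 and 14.

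The proteins found at many MLL1 peaks were found at a small share of MLL3 peaks. List length limits that share. The 208538 MLL3 peaks were set against 68934 Menin, 58123 Wdr5, 8114 ING1 and 4419 LSD1 peaks of myoblasts. Few MLL3 peaks could therefore meet the ING1 or LSD1 list, wherever the proteins lie. Menin lay at 9.32% of MLL3 peaks and at 74% of pooled MLL1 peaks, and the MLL1 replicates had 85.4% and 97.2% (mean 91.3%, SD 8.32, n = 2). Wdr5, the core subunit common to both complexes, lay at 6.29% of MLL3 peaks and at 59.2% of pooled MLL1 peaks, with 70.7% and 92.6% in the replicates (mean 81.6%, SD 15.5). ING1 of myoblasts lay at 0.719% of MLL3 peaks and at 34.7% of pooled MLL1 peaks, with 45.5% and 73.0% in the replicates (mean 59.3%, SD 19.5). LSD1 of myoblasts lay at 0.38% of MLL3 peaks and at 17.7% of pooled MLL1 peaks, with 23.3% and 29.3% in the replicates (mean 26.3%, SD 4.31). For each of the 4 proteins the MLL3 share was below that of pooled MLL1 by more than the MLL1 replicates differed from each other, most narrowly for ING1, where MLL3 minus MLL1 was -33.9 percentage points and the replicates stood 27.5 points apart.

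The lists of myotubes gave the same order at the sites held in myoblasts. ING1 of myotubes lay at 0.855% of MLL3 peaks and 36.4% of pooled MLL1 peaks, and Sin3A of myotubes at 1.37% of MLL3 peaks and 42% of pooled MLL1 peaks. LSD1 of myotubes lay at 1.76% of MLL3 peaks and 20.6% of pooled MLL1 peaks. Within MLL3 the share with LSD1 was thus larger for the myotube list than for the myoblast list (0.38%), but the myotube list was also longer, with 16361 peaks against 4419. In the MLL1 replicates the myotube lists stood at 46.3% and 69.1% for ING1, 52.1% and 73.3% for Sin3A, and 26.7% and 40.4% for LSD1.

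**Figure D2:**
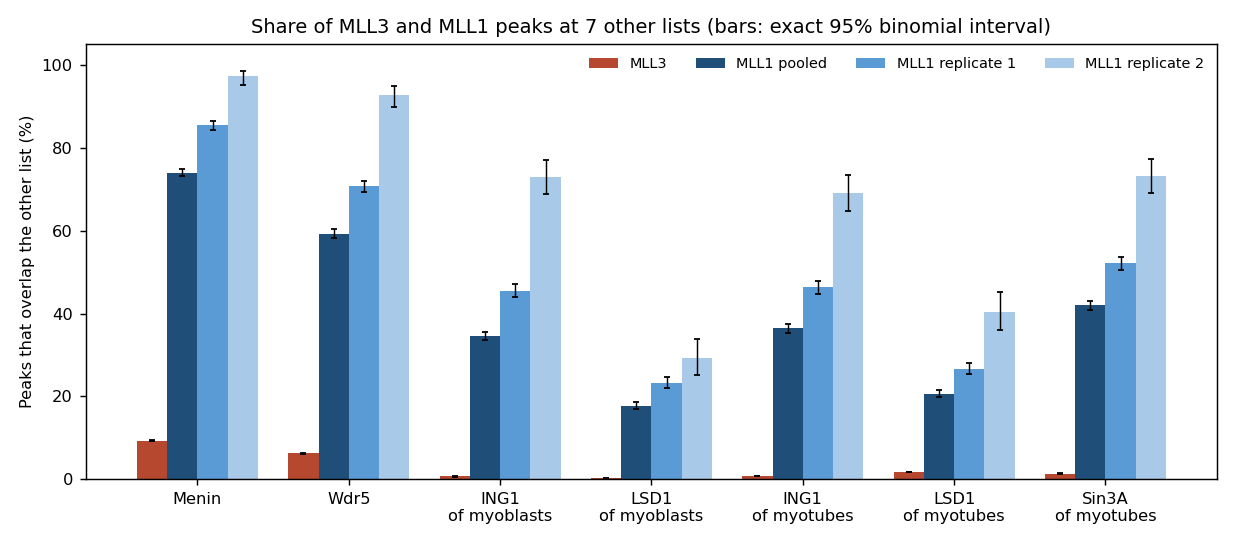
Percentage of MLL3 peaks and of the peaks of 3 MLL1 lists (bars) that overlapped each of 7 other lists by 1 bp or more, with exact 95% binomial intervals that cover counting error only. Every MLL1 bar stands above the MLL3 bar of its group, from Menin (9.32% for MLL3 and 74% for pooled MLL1) to LSD1 of myoblasts (0.38% and 17.7%).

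The direction held on each chromosome, where the MLL3 list was also the longer. On all 19 autosomes the share of peaks with Menin, with Wdr5, with ING1 and with LSD1 of myoblasts was lower for MLL3 than for pooled MLL1. Menin ranged over the chromosomes from 6.79% to 12.3% of MLL3 peaks and from 63.6% to 83.6% of pooled MLL1 peaks. The direction also held when only the 8795 widest MLL3 peaks were used. Of these, 31.4% met Menin, 20.5% met Wdr5, 3.56% met ING1 and 2.47% met LSD1 of myoblasts. Each was above the share of the whole MLL3 list and below that of pooled MLL1.

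Read from the side of the other proteins, the order was mixed. Of the 68934 Menin peaks, 29.0% met MLL3 and 8.16% met pooled MLL1, and of the 58123 Wdr5 peaks, 22.0% met MLL3 and 8.64% met pooled MLL1. Of the 8114 ING1 peaks of myoblasts, by contrast, 18.8% met MLL3 and 38.1% met pooled MLL1. For the 4419 LSD1 peaks of myoblasts the shares were 19.6% with MLL3 and 37.7% with pooled MLL1. MLL3, over 6.77% of the autosomal length, thus met 1525 ING1 and 864 LSD1 peaks, and MLL1, over 0.263%, met 3091 and 1666.

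Sharing with the other proteins was highest in the widest class of MLL3 and MLL1 peaks for Menin, ING1 and LSD1, but from under 400 bp to 400 to 600 bp the MLL3 shares were lower for all 7 other lists. Menin lay at 6.94% of MLL3 peaks under 400 bp, 5.79% of those from 400 to 600 bp, 7.28% from 600 to 800 bp, 11.0% from 800 to 1200 bp, 18.4% from 1200 to 2000 bp and 34.6% from 2000 bp. For pooled MLL1 the shares with Menin in the same classes of width were 54.8%, 65.0%, 80.0%, 94.96%, 98.8% and 99.6%. In every class the MLL3 share was the lower, with the smallest difference in the narrowest class (-47.9 percentage points). ING1 of myoblasts lay at 0.452% of the narrowest and 3.95% of the widest class of MLL3 peaks, and at 14.8% and 83.7% of those classes of MLL1. LSD1 of myotubes, at 0.772% and 18.0% of the narrowest and widest MLL3 classes and 8.90% and 50.2% of the MLL1 classes, was the myotube list most often met by wide MLL3 peaks.

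The 4 other myoblast proteins, Menin, Wdr5, ING1 and LSD1, were then counted at each peak. No such protein was found at 86.4% of MLL3 peaks, against 20.6% of pooled MLL1 peaks, 10.6% in replicate 1 and 1.09% in replicate 2. At least 2 were found at 2.25% of MLL3 peaks and at 57.3%, 71.1% and 95.2% of the peaks of the MLL1 lists in the same order. All 4 were found at 497 MLL3 peaks (0.238%) and at 1207 pooled MLL1 peaks (13.7%). Most MLL3 peaks thus stood apart from these proteins, which the length of the MLL3 list in part sets. Most MLL1 peaks stood with at least 2.

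The combinations also differed. Among MLL3 peaks that met any of the proteins, Menin alone (7.14% of the MLL3 list) and Wdr5 alone (4.14%) were the 2 most common patterns, and Menin with Wdr5 was found at 1.46%. Among pooled MLL1 peaks, Menin with Wdr5 was found at 19.6%, Menin with Wdr5 and ING1 at 18.0%, Menin alone at 17.1% and Wdr5 alone at 4.70%. Wdr5 alone was found at 3.25% and 0.217% of the peaks of the MLL1 replicates.

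MLL3 and MLL1 shared few sites. Of the pooled MLL1 peaks, 1507 met MLL3 (17.1%, 16.4 to 17.9), with 15.4% in replicate 1 (14.3 to 16.6) and 10% in replicate 2 (7.41 to 13.1). Of the MLL3 peaks, 1524 met pooled MLL1 (0.731%, 0.695 to 0.768), and 0.307% and 0.0216% met replicates 1 and 2, so this share moves with the length of the MLL1 list by far more than its interval. MLL3 covered 6.77% of the autosomes on average and 10.1% of the positions 500 kb to either side of the pooled MLL1 peaks, which gives the scale for the 10.6% of MLL1 peak centres that lay under an MLL3 peak. Where peaks were shared, the overlap had a median of 371 bp. More than 50% of the MLL1 peak was covered by MLL3 in 910 of the 1507 cases (60.4%), and the whole of it in 406 (26.9%). The centres of the nearest shared peaks stood a median of 388.5 bp apart, and 33.3% lay within 250 bp.

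MLL3 peaks that met MLL1 differed from other MLL3 peaks in the proteins found with them. Those with MLL1 were chosen for lying at MLL1. Of all pooled MLL1 peaks, 74% met Menin, 59.2% Wdr5, 34.7% ING1 of myoblasts and 17.7% LSD1 of myoblasts. The shares of the MLL3 peaks with MLL1 are close to these and restate them in large part. Of the 1524 MLL3 peaks that met MLL1, 73.3% met Menin, against 8.85% of the other 207014 MLL3 peaks. The pairs were 55.2% and 5.93% for Wdr5, 29.9% and 0.504% for ING1 of myoblasts, 17.6% and 0.253% for LSD1 of myoblasts, and 36.7% and 1.11% for Sin3A of myotubes. MLL3 peaks with MLL1 were also wider, with a median of 859.5 bp against 634 bp for the rest. Weighted to the widths of the shared peaks, the remaining MLL3 peaks met Menin at 13.2%, and the difference of 64.4 percentage points became 60.1. The direction was the same on 19 of 19 autosomes for each of the lists, except for LSD1 of myotubes, where it was 18 of 19.

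In the pooled list, MLL1 peaks with and without MLL3 held most of the other proteins at close shares. Menin lay at 73.1% of MLL1 peaks with MLL3 and 74.2% of those without, Wdr5 at 57.5% and 59.6%, ING1 of myoblasts at 35.4% and 34.5%, and Sin3A of myotubes at 41.3% and 42.1%. The counting intervals of each of these pairs overlapped. LSD1 of myoblasts stood at 22.7% (20.6 to 24.9) of MLL1 peaks with MLL3 and 16.7% (15.9 to 17.6) of those without. When peaks without MLL3 were weighted to the widths of those with it, the differences were 4.09 percentage points for LSD1, -4.62 for Wdr5, -3.38 for Sin3A, -3.24 for Menin and -2.15 for ING1 of myoblasts. For LSD1 of myotubes the difference was 2.83 points in the pooled list and 0.978 at those widths. In replicates 1 and 2 it was 1.36 and -6.28 points. LSD1 of myoblasts, like MLL3, has a single list. Its share was the higher with MLL3 on 17 of 19 autosomes. It had the same sign in both MLL1 replicates, at 27.1% (23.6 to 30.7) and 22.6% (21.2 to 24.0) in replicate 1 and 32.6% and 29.0% in replicate 2, where 46 peaks met MLL3 and where, as in replicate 1, the intervals overlapped. In replicate 1, Menin was at 81.0% with MLL3 (77.7 to 84.0) and 86.2% without (85.0 to 87.3), and Sin3A of myotubes at 46.4% (42.4 to 50.3) and 53.1% (51.4 to 54.8), differences of -5.20 and -6.76 whose intervals did not overlap. In both replicates, Wdr5 and ING1 of myoblasts were lower with MLL3 than without, at differences of -7.79 and -3.11 percentage points in replicate 1 and -8.70 and -11.1 in replicate 2, against -2.07 and 0.860 in the pooled list.

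The same asymmetry appeared when peaks were ordered by the number of other myoblast proteins they met. The share of MLL3 peaks that met MLL1 was 0.170% with none of the 4 proteins, 1.71% with 1, 10.6% with 2, 30.5% with 3 and 39.4% with all 4. This climb restates in large part that MLL1 peaks met several of the 4 proteins, and is no separate result about MLL3. The share of MLL1 peaks that met MLL3 was 16.9%, 18.7%, 15.4%, 14.3% and 22.1% over the same steps, with no steady trend. MLL1 peaks with all 4 proteins (22.1%, 19.8 to 24.6) stood above those with 3 (14.3%, 12.8 to 16.0). Of the 1891 peaks with 3 proteins, 1581 held Menin, Wdr5 and ING1 and lacked LSD1.

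**Figure D3:**
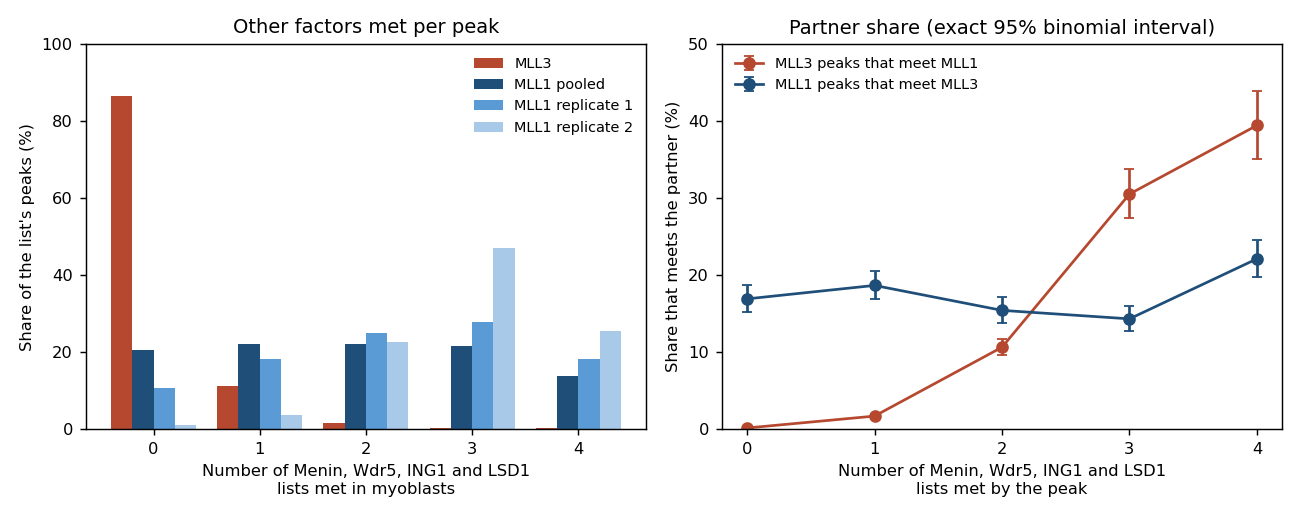
Left, percentage of the peaks of MLL3 and of 3 MLL1 lists that met 0 to 4 of the Menin, Wdr5, ING1 and LSD1 lists of myoblasts. Right, percentage of MLL3 peaks that met pooled MLL1 and of pooled MLL1 peaks that met MLL3, by that number, with exact 95% binomial intervals: the MLL3 line climbs to 39.4% at 4 proteins and the MLL1 line stays between 14.3% and 22.1%.

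MLL3 coverage was lower at the centres of MLL1 peaks than 10 kb from them. MLL3 peaks covered 10.6% of pooled MLL1 peak centres (9.94 to 11.2), 13.1% of positions 10 kb to either side (12.6 to 13.6) and 10.1% of positions 500 kb away (9.69 to 10.6). The centre thus stood at 0.807 of the level at 10 kb, and it was the lower of them on 16 of 19 autosomes. This dip, taken against the level at 10 kb, was deeper in the replicate lists. In replicate 1 the coverage was 9.25% at the centre and 13.7% at 10 kb (quotient 0.676). In replicate 2 it was 7.17% (4.99 to 9.93) and 13.6% (0.528). For the 324 pooled peaks in both replicates it was 7.10% (4.55 to 10.5) and 15.4% (0.460). At 500 kb these lists had 10.0%, 8.15% and 7.56%. Their centres stood at 0.922, 0.880 and 0.939 of that level, nearer to it than to the level at 10 kb. Around Menin peaks the order was the other way (19.3% at the centre and 15.4% at 10 kb, quotient 1.25), as it was around Wdr5 peaks (14.0% and 11.6%, 1.21). ING1 peaks of myoblasts had a deeper dip than pooled MLL1 (10.6% and 15.6%, 0.678), and LSD1 peaks had close values (16.1% and 16.2%, 0.992), so the dip was not particular to MLL1.

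The dip differed in size with the number of other proteins at the MLL1 peak. Pooled MLL1 peaks with none of the 4 other proteins had an MLL3 coverage of 12.2% at the centre (10.8 to 13.8) and 11.1% at 10 kb, with no dip. Those with 1 or 2 had 11.5% and 12.4%. Those with 3 or 4 had 8.39% at the centre (7.44 to 9.42) and 15.2% at 10 kb (14.3 to 16.1), a quotient of 0.553. Within MLL1 peaks over 1 kb, MLL3 covered 8.20% of the bases in the middle 50% of the width. It covered 9.55% of those toward the edges and 9.94% of flanks of the same width. Over all pooled MLL1 peaks these values lay closer together, at 9.71%, 10.2% and 10.3%. MLL1 peaks with LSD1 had 10.8% and 16.0%, and those without LSD1 had 10.5% and 12.5%. The lowest centre was that of peaks with exactly 3 proteins, at 7.09% (5.97 to 8.34) and 14.0% at 10 kb (quotient 0.505). Peaks with all 4 had 10.4% at the centre (8.77 to 12.3), which overlapped the interval of peaks with none. At 10 kb they had 16.98% (quotient 0.615) and at 500 kb 10.5%. Their centre thus lay below the level at 10 kb and close to that at 500 kb. Peaks with exactly 3 proteins had 9.89% at 500 kb, above their centre. The groups with none, with 1 or 2 and with 3 or 4 came to 10.1%, 10.2% and 10.1% at 500 kb.

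**Figure D4:**
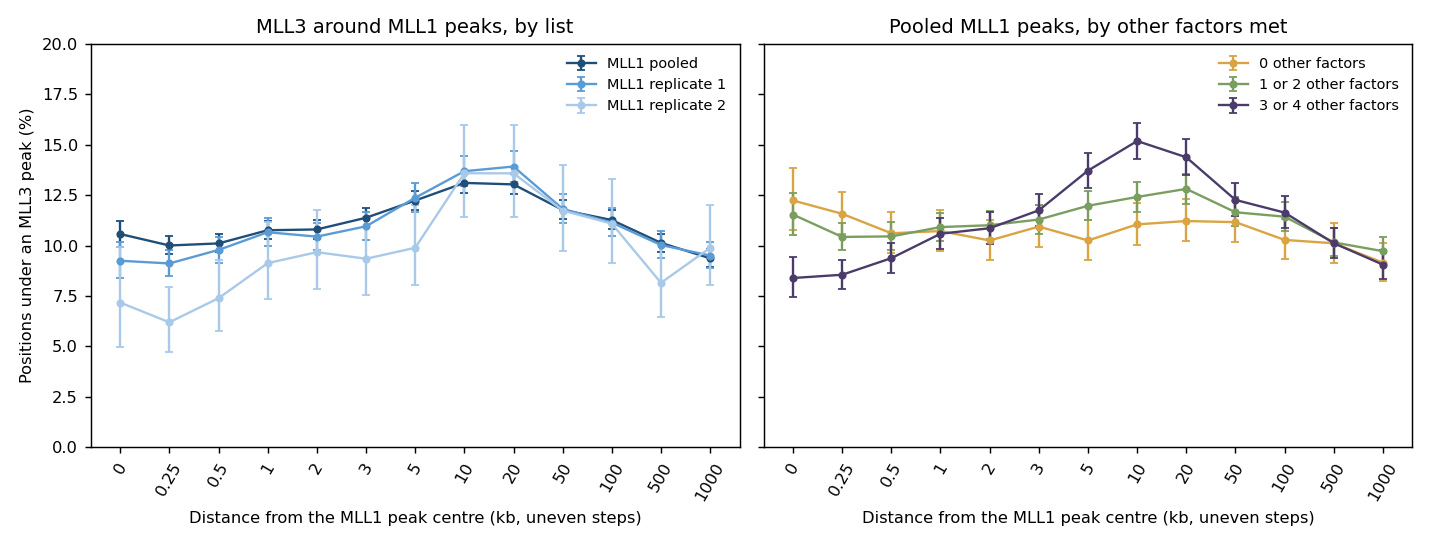
Percentage of positions under an MLL3 peak against the distance in kb from the centre of MLL1 peaks (both sides joined, uneven steps), with exact 95% binomial intervals, for the 3 MLL1 lists (left) and for pooled MLL1 peaks by the number of Menin, Wdr5, ING1 and LSD1 lists met (right). Coverage is lowest near the centre and highest at 10 to 20 kb for the peaks with 3 or 4 other proteins (8.39% and 15.2% at 10 kb), and shows no dip for those with none (12.2% at the centre and 11.1% at 10 kb).

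The nearest MLL3 peak was seldom far from MLL1. From the pooled MLL1 peaks the median distance to MLL3 was 2.42 kb, from replicate 1 it was 2.50 kb and from replicate 2 it was 3.27 kb. Within 10 kb of an MLL3 peak stood 85.7%, 86.9% and 83.3% of these lists, and 23 of the 8795 pooled peaks lay farther than 100 kb, the farthest at 199 kb. From MLL3 peaks the median distance to pooled MLL1 was 87.1 kb, and 9.42% had one within 10 kb. Of the pooled MLL1 peaks, 6033 (68.6%) did not meet MLL3 but had it within 10 kb on at least 1 side, and 1255 (14.3%) had it neither upon them nor within 10 kb. The centres of 35.2% of pooled MLL1 peaks lay inside an MLL3 cluster of 3 or more peaks, with 33.5% and 28.5% in the replicates, against 23.1% of the autosomal length, 50.4% of Menin centres and 43.8% of LSD1 centres.

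The share of MLL1 peaks that met MLL3 followed how much of each chromosome MLL3 covered. It was 28.0% on chromosome 15 and 26.5% on chromosome 11, where MLL3 covered 14.7% and 14.5% of the length, and 10.7% on chromosome 7, where MLL3 covered 2.75%. The lowest share was 8.83%, on chromosome 16, with 5.07% covered. Over the 19 autosomes Pearson's r was 0.886 and Spearman's rho 0.753, and without chromosomes 11 and 15 they were 0.646 and 0.654. The points share 1 MLL3 list, and no p is given.

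**Figure D5:**
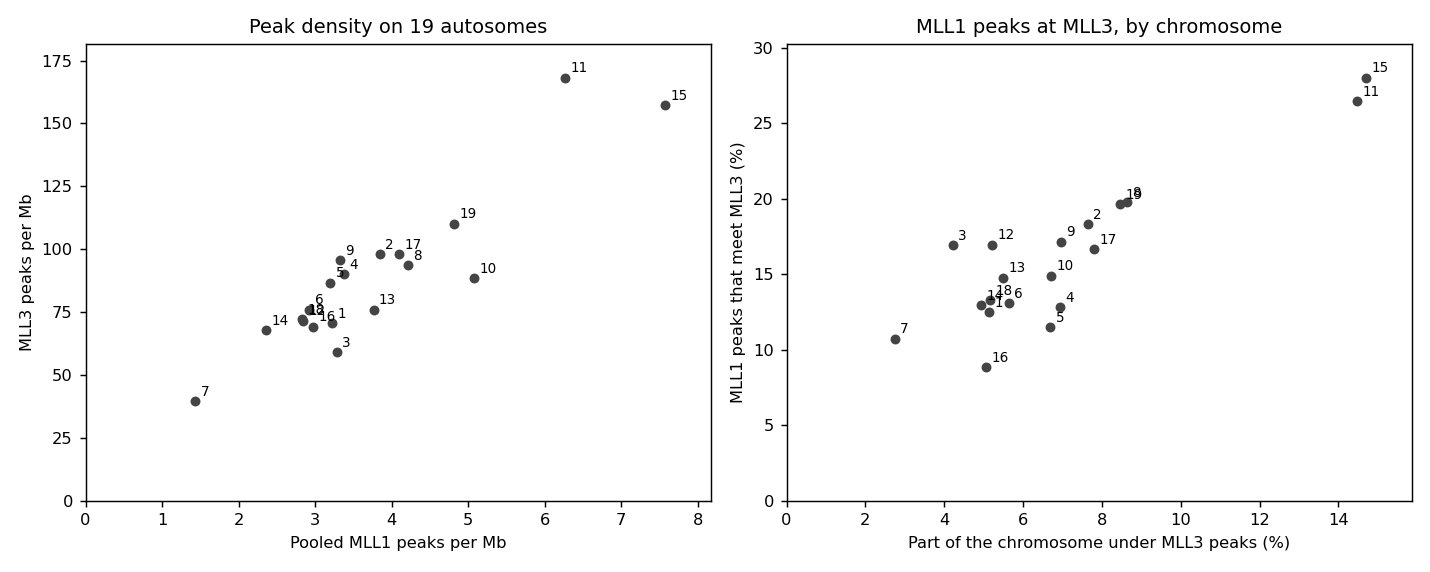
Left, MLL3 peaks per Mb against pooled MLL1 peaks per Mb on the 19 autosomes, each point labelled with its chromosome. Right, the percentage of pooled MLL1 peaks that met MLL3 against the percentage of the chromosome under MLL3 peaks: chromosomes 11 and 15 stand apart at the upper right in both, with 168 and 157 MLL3 peaks per Mb.

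The largest clusters of each protein lay at different places. Coordinates are those of the files, build mm9, and no annotation of that build was used, so no genes are named. The largest MLL3 cluster, on chromosome 15 from 73563734 to 74448643, held 410 peaks over 885 kb and was 54.6% covered by MLL3. It held 1 pooled MLL1 peak, 4 Menin peaks and 64 Wdr5 peaks. The next, on chromosome 15 from 83370589 to 83973585, held 267 MLL3 peaks and 3 MLL1 peaks. The third, on chromosome 11 from 118387264 to 118872044, held 242 MLL3 peaks, no MLL1 peak, no Menin peak and 22 Wdr5 peaks. All 3 were long MLL3 domains, over 50% covered. Pooled MLL1 averaged 3.65 peaks per Mb over the autosomes, so few MLL1 peaks would be found in any stretch of under 1 Mb.

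MLL1 clusters were shorter, and those on chromosomes 15 and 1 lay mostly under Menin. The cluster on chromosome 15 from 102765251 to 102836857 held 19 pooled MLL1 peaks and 11 MLL3 peaks, with 20.6% of its length under MLL3, 89.5% under Menin and 68.8% under Wdr5. The cluster on chromosome 1 from 148338014 to 148375990 held 18 MLL1 peaks and no MLL3 peak, the nearest being 0.822 kb outside it, with 96.4% under Menin, 13.5% under Wdr5 and no peak of replicate 2. The cluster with the most MLL1 peaks stood apart from these. It lay on chromosome 9 from 3000227 to 3038192, at the very start of the listed sequence of that chromosome (first position in any list 3000000), and held 28 pooled MLL1 peaks and 33 MLL3 peaks. Without a genome of build mm9 it could not be checked whether this stretch is repeated sequence, which would change what its peak counts mean. Menin covered 0.616% of it and LSD1 of myotubes 70.4%. Without that start, the difference between MLL3 and MLL1 in clustering was 63.6 percentage points (63.3 with it), and the centre-to-10-kb quotient was 0.804 (0.807 with it).

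By windows of 1 Mb, MLL3 was densest on chromosome 15 from 73000001 to 74000000, with 384 MLL3 and 10 MLL1 peaks. The next was on chromosome 15 from 84000001 to 85000000, with 365 and 5. The third was on chromosome 11 from 118000001 to 119000000, with 331 and 5. MLL1 was densest on chromosome 15 from 102000001 to 103000000, with 219 MLL3 and 40 MLL1 peaks, next on chromosome 11 from 3000001 to 4000000, with 255 and 34, and then on chromosome 8 from 87000001 to 88000000, with 173 and 30. The windows richest in MLL1 were thus rich in MLL3 as well, against a median of 71 MLL3 peaks over all windows. The 3 richest in MLL3 held 10, 5 and 5 MLL1 peaks, above the median of 2.5 over all windows.

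Among the 324 pooled MLL1 peaks found in both replicates, the 5 with most bases under MLL3 were looked at singly. The peak on chromosome 15 from 102804296 to 102814818, the widest of them at 10.5 kb, was 37.7% covered by 3 MLL3 peaks (3970 bp), wholly by Menin and 93.6% by Wdr5. On chromosome 15 from 85503846 to 85510722, MLL3 covered 50.5% of an MLL1 peak of 6877 bp, and ING1 of myoblasts covered 49.3%. On chromosome 3 from 137727555 to 137733884, a single MLL3 peak covered 52.5% of 6330 bp, beside 97.0% for Wdr5, 89.4% for ING1 and 34.6% for LSD1 of myoblasts. On chromosome 12 from 74139472 to 74148090, MLL3 covered 29.5% of the MLL1 peak. On chromosome 3 from 68808901 to 68813916 it covered 41.9%, and Menin covered all of both peaks. In these 5 peaks, picked for MLL3, Menin was complete and MLL3 partial. Over all 324 peaks, Menin covered 98.3% of the bases and MLL3 covered 8.44%.

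Most of the 324 held no MLL3, since 67 of them (20.7%) met it. The second widest of the 324, on chromosome 6 from 52169376 to 52178204 (8829 bp), was wholly covered by Menin and held no MLL3, the nearest MLL3 peak being 11.2 kb away. The fifth widest, on chromosome 4 from 88577860 to 88586116 (8257 bp), was likewise under Menin and stood 3.86 kb from MLL3. None of the 324 lay farther than 100 kb from MLL3. The farthest, a peak of 72 bp on chromosome 3 from 5860619 to 5860690, stood 46.5 kb from MLL3 and was chosen after its values were seen. Of the 5 widest MLL3 peaks, from 15.5 kb to 21.8 kb, 1 met an MLL1 peak. Pooled MLL1 was met by 3.55% of the MLL3 peaks from 2000 bp and by 0.731% of all MLL3 peaks. The wide peak that met MLL1 lay on chromosome 15 from 66734361 to 66750489, and MLL1 covered 3.79% of its length. LSD1 of myotubes covered 22.6% of that peak and between 13.1% and 63.5% of each of the 5.

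Both lists left long stretches empty, and these regions were likewise picked after their values were seen. The longest MLL3 gap ran over 7.72 Mb on chromosome 7 from 39079820 to 46799915 and held 1 pooled MLL1 peak, 4 Menin peaks and 2 Wdr5 peaks, so it was nearly empty in the other lists too. The longest pooled MLL1 gap, 9.15 Mb on chromosome 14 from 106296349 to 115441443, held 141 MLL3 peaks, which covered 0.884% of it, along with 46 Wdr5 and 19 Menin peaks. MLL3 had 23 gaps over 1 Mb and pooled MLL1 had 551.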

How the data were processed

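The deposited values were peak boundaries, the left and right end of each peak in bp, per the file headers, and carried no heights, read counts or p-values. Coordinates were taken as 0-based at the left end and are printed 1-based. Bowtie 0.12.9, SAMtools 0.1.19, bedtools 2.17.0 and build mm9 (NCBIM37) appear in the submitters' processing notes without a role. No source used here gives the peak caller, its threshold or the way MLL1 replicates were pooled.

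From the lists, Python 3.11.15 with numpy 2.4.6, pandas 2.3.3 and scipy 1.17.1 computed widths, gaps between neighbours, clusters, overlaps of 1 bp or more, and MLL3 coverage at fixed distances from MLL1 centres, on the 19 autosomes. The interval code was tested on simulated data, and 4 overlaps were identical with bedtools 2.31.1. No test over samples was made, because MLL3 has 1 list. Widths were weighted in the classes given in the text. Named regions were the 5 widest MLL3 peaks, the 5 widest pooled MLL1 peaks present in both replicates, the 5 of that kind with most bases under MLL3, those over 100 kb from MLL3, and the 3 largest clusters and densest 1-Mb windows of each protein. The planned gene names and gene lists need an annotation of mm9, which was not used here. The members and lists were chosen with earlier results of these data known. The 10 inputs and 6 RNA-seq samples among the 33 samples played no part. Alternatives were unions of replicate lists, peaks in both replicates, each replicate left out, the wider 50%, equal list lengths, a minimum overlap of 50% of the shorter peak, a distance of up to 500 bp, peaks joined over 1 kb and chromosome X, and, chosen after seeing the data, no chromosome 15 and no start of chromosome 9.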

Additional observations from a re-analysis of the deposited data

Results flagged for a closer look

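Peaks outside the autosomes were left out of the comparison and still held signal. MLL3 had 9666 peaks on chromosome X, at 0.690 of its autosomal density per Mb, and pooled MLL1 had 97, at 0.164. The MLL1 replicates had 33 and 6 peaks there. Of the 97 pooled MLL1 peaks on X, 6 met MLL3 (6.19%, exact 95% interval 2.30 to 13.0), against 17.1% on the autosomes. Control samples were not analysed here, and the difference between X and the autosomes was not tested. On the mitochondrial genome MLL3 had 2 peaks and pooled MLL1 had 15, with 8 and 6 in the replicates.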

How the results depend on the processing

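Over 10 results, 89 alternative values were computed. The spread set beside each change was the SD of that result between the 2 MLL1 replicate lists. By that rule 45 values kept within the spread, 39 moved beyond it and 5 changed sign. The SD was 2.12 bp for width and 19.5 percentage points for ING1 of myoblasts, and it is no uncertainty of the main value. No paired analysis was possible because MLL3 has 1 list, shares fewer than 2 replicate numbers with MLL1, and gives no test. The width and spacing results changed direction with the choice of peaks, and the cause was not tested beyond the selection that each choice makes. The median width difference, MLL3 minus MLL1 (70 bp), was -1041.5 bp with the pooled MLL1 peaks in both replicates, 64 bp with the union of replicates, 1703 bp at equal lengths (a value fixed by taking the widest MLL3 peaks, and no check of the difference), 110 bp with peaks within 1 kb joined, and 60.5 to 63.5 bp with a replicate left out. The difference in median over mean gap (0.0192) was -0.191 with peaks in both replicates, -0.0727 with the wider 50%, -0.207 at equal lengths, and -0.0666 to 0.0119 with a replicate left out, so its sign is not settled.

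The share of MLL1 peaks meeting MLL3 (17.1%) was 13.2% with the wider 50%, 3.42% at equal lengths, 12.3% with an overlap of 50% of the shorter peak, 26.7% within 500 bp, and 10% to 15.4% with a replicate left out. The share of MLL3 peaks meeting MLL1 (0.731%) was 0.309% with the union, 0.0398% with peaks in both replicates, 3.14% at equal lengths, 0.519% with an overlap of 50%, 1.20% within 500 bp, and 0.0216% to 0.307% with a replicate left out. The clustering difference (63.3 points) was 16.5 at equal lengths and 49.9 to 64.4 with a replicate left out.

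The differences at other proteins kept their sign in each alternative run. For Menin (-64.7 points) they were -76.1 with the union, -90.1 with peaks in both replicates, -75.1 with the wider 50%, -42.6 at equal lengths, and -87.9 to -76.1 with a replicate left out. For Wdr5 (-53.0) they were -89.4 in both replicates, -36.0 with unions of the Wdr5 replicates, and -86.3 to -64.4. For ING1 (-33.9) they were -78.6 in both replicates and -72.3 to -44.8. For LSD1 (-17.4) they were -23.0 with the union, -41.3 in both replicates, -27.3 with the wider 50%, and -29.0 to -22.9. The centre-to-10-kb quotient (0.807) was 0.668 with the union, 0.460 in both replicates, and 0.528 to 0.676 with a replicate left out. Chosen after seeing the data, leaving out chromosome 15 was run for both shared shares, spacing, clustering and the centre quotient, and leaving out the start of chromosome 9 for the last 3 of these, and none moved beyond its spread. The widths and the shares at other proteins were not run without them.

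The main limits are the single MLL3 list, a single LSD1 list per cell state, an MLL1 replicate 2 of 460 peaks, unknown depth, and lists of unequal length. A longer list meets more of any other, and a smaller share of its own peaks can meet a shorter list. MLL1 shares at other proteins were higher in the shorter replicate lists, and no peak heights were given to rank peaks by.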
